A study of Mus musculus with 6 samples.

Results

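The actin cytoskeleton of the podocyte was followed through 10 genes: Actn4, Synpo, Inf2, Myo1e, Arhgap24, Rhpn1, Plce1, Clic3, Npnt and Thsd7a. They were chosen by name as genes of the podocyte cytoskeleton and foot processes. All 10 were found among the 18822 genes with values. All 10 also passed the expression filter, a mean over the 6 libraries of 1 FPKM or more (fragments per kilobase of transcript, scaled to the mapped fragments of each library), which left 12388 genes to test.

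RNA was sequenced from renal glomeruli, the capillary tufts that filter blood, in 6 libraries from C57BL/6J mice with diabetic kidney disease. There were 3 libraries of PR3 knockout mice (PR3_KO) and 3 of wild-type mice (WT), so the strain and the disease state were shared by both groups and no library came from mice without the disease. The design asks how glomerular expression differs between these genotypes. The labels do not give the age, the sex, how diabetes was brought about, how the knockout allele was made, or whether each library was a separate animal. P-values therefore measure the spread between these libraries, which may be technical.

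Podocytes are epithelial cells that wrap the glomerular capillaries with interlocking foot processes. Each foot process is held in shape by bundled actin filaments that connect to the slit diaphragm at its sides and to the glomerular basement membrane at its base. The bundles are anchored, remodelled and put under tension by cross-linking, motor and signalling proteins, and inherited defects in several of the genes described here cause proteinuria and glomerulosclerosis.

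All 10 genes had a lower mean in PR3_KO than in WT. In 6 of them, Synpo, Plce1, Inf2, Myo1e, Npnt and Actn4, the fall passed the test (limma on log2(FPKM + 1), Benjamini-Hochberg adjusted p under 0.05 over all tested genes). None rose. The background was high, since 41.1% of the tested genes fell and 11.7% rose. The median log2 fold change of the 10 genes was -0.53, against -0.26 over all tested genes. With median-of-ratios scaling, which sets the typical gene equal between libraries, the median of all genes moved to 0.03, that of the 10 genes to -0.24, and the falls of Synpo and Inf2 passed.

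The targeted gene Prtn3, which encodes proteinase 3, was at 0.46, 0.21 and 0.22 FPKM in WT 1, 2 and 3, and lower, at 0.14, 0 and 0.07 FPKM, in the knockout libraries. Such levels rest on few fragments and are a weak check of the labels. The depth, read from the lowest values of olfactory receptor genes, was near 15200000 fragments in 5 libraries and 13300000 in WT 1. Rounding of those values allows 14200000 to 16300000 and 12500000 to 14200000, so a lower depth of WT 1 is not resolved. A gene at 1 FPKM stands for roughly 13.3 to 15.2 fragments per kilobase. All 8 podocyte reference genes, among them Nphs1, Wt1, Kirrel, Ptpro, Tcf21, Lmx1b and Foxc2, were above 0 in every library, with a summed level of 111 to 236 FPKM in PR3_KO and 186 to 337 in WT. Their ranges overlapped. The same sum for 10 proximal tubule markers was 46522 to 63319 FPKM in PR3_KO and 7369 to 22005 in WT, with none at 0. Most of it came from a single marker, Kap. Kap alone held 7.15% to 9.52% of all FPKM in the PR3_KO libraries and 1.06% to 3.56% in WT. All 10 markers were higher in PR3_KO, with a median log2 fold change of 0.96. For 9 macrophage markers the sum was 43.6 to 91.4 against 367 to 823 FPKM, and for 10 glomerular endothelial markers 832 to 1152 against 2313 to 2815. Markers of mesangium and smooth muscle (8 genes) summed to 104 to 175 against 190 to 315 FPKM, and those of the loop, distal tubule and collecting duct (8 genes) to 679.6 to 1079 against 1122 to 1474 FPKM. The sum of the 5 parietal epithelial markers was the other way round, at 102.05 to 109 FPKM in PR3_KO and 69.8 to 70.4 in WT. The 5 genes did not move together. By limma 3 rose and 1 fell, against 11.7% and 41.1% of all tested genes, with log2 fold changes from -1.88 to 0.93. Their mean log2(FPKM + 1) overlapped, at 3.47 to 3.65 in PR3_KO and 3.50 to 3.57 in WT.

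None of the 6 sums other than the podocyte one overlapped between genotypes. The proximal tubule and parietal sums were higher in PR3_KO and the other 4 lower, as the members were. Their part in the results below was not tested beyond the fits named there. In bulk RNA, fewer podocytes and less RNA per podocyte cannot be told apart. The members are therefore given on a second scale as well, with the mean log2(FPKM + 1) of the 8 podocyte reference genes subtracted in each library. As deposited, the median log2 fold change of these 8 genes was -0.56, against -0.53 for the members.

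Actn4 encodes alpha-actinin-4, which cross-links actin filaments in foot processes. It maps to chromosome 7, minus strand, bases 28893248 to 28962351 (GRCm38.p6), and 316 of its 6127 exonic bases (5.16%) overlap exons of Capn12 on the other strand, whose reads cannot be told apart without strand information. Actn4 was at 125.51, 150.78 and 143.53 FPKM in the knockout libraries 1, 2 and 3, against 177.44, 222.96 and 178.48 FPKM in WT. The groups did not overlap. That held for 6 of the 10 members, each with WT higher, and for 49.1% of all tested genes in this direction and 16.0% in the other. The means were 139.9 ± 13.0 and 193 ± 26.0 FPKM (SD, n = 3 per genotype). The gene fell by 0.46 on the log2 scale (SE 0.14, adjusted p = 0.0260 by limma), but was at -0.13 after median-of-ratios scaling (adjusted p = 0.443 by limma). The call was lost without PR3_KO 1 and without PR3_KO 3 (adjusted p = 0.0987 and 0.0677 by limma).

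Synpo, on chromosome 18 (minus strand, bases 60593981 to 60660173), encodes synaptopodin, an actin-associated protein of differentiated foot processes that stabilises stress fibres. It stood at 37.56, 63.10 and 43.08 FPKM in the knockout libraries 1, 2 and 3, against 73.63, 161.78 and 103.51 FPKM in WT. Every WT library lay above every PR3_KO library, and the WT libraries differed among themselves by more than the highest PR3_KO library differed from the lowest WT library. The mean fell from 113 ± 44.8 to 47.9 ± 13.4 FPKM, 42.4% of the WT mean (log2 change -1.18 with an SE of 0.30, adjusted p = 0.0132 by limma). This was the largest fold change of the 10 genes as deposited. It passed with median-of-ratios scaling too (-0.86, adjusted p = 0.0336 by limma), but not without PR3_KO 1 (-1.03, adjusted p = 0.0562 by limma).

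Inf2 encodes inverted formin 2, which both elongates and severs actin filaments, and maps to chromosome 12, plus strand, bases 112588744 to 112615557. Its level was 6.91, 8.86 and 10.22 FPKM in PR3_KO against 15.37, 18.72 and 13.27 FPKM in WT. The groups did not overlap, and here PR3_KO 3 rather than PR3_KO 2 was the highest PR3_KO library. The fall from 15.8 ± 2.75 to 8.66 ± 1.66 FPKM had the smallest adjusted p of the 10 genes (log2 change -0.80 with an SE of 0.16, adjusted p = 0.00555 by limma). It kept its call when any single library was left out (adjusted p = 0.00810 to 0.0184 by limma), also after median-of-ratios scaling (-0.49, adjusted p = 0.0218 by limma), and no other member kept its call in all 6 of the fits without 1 library.

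Myo1e, a class I myosin that links actin to the cell membrane, maps to chromosome 9, plus strand, bases 70207350 to 70400067. It was measured at 19.04, 27.32 and 24.36 FPKM in the knockout libraries 1, 2 and 3, against 34.43, 46.07 and 30.34 FPKM in WT. No library of one genotype reached the range of the other. The mean went from 36.9 ± 8.16 to 23.6 ± 4.20 FPKM (log2 change -0.62 with an SE of 0.18, adjusted p = 0.0223 by limma). With median-of-ratios scaling it was at -0.30 (adjusted p = 0.133 by limma), and it was not past the threshold without PR3_KO 1 or PR3_KO 3 (adjusted p = 0.0745 and 0.0505 by limma).

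All 4 genes of the actin cytoskeleton itself fell as deposited, as did 41.1% of all tested genes, with a median of -0.71 against -0.26. With median-of-ratios scaling 2 of the 4 (Synpo and Inf2) fell, against 22.2% of all tested genes. The 250 bases before a transcription start of the members were searched for binding motifs known from podocyte and actin genes. RefSeq promoter sequences (GRCm38.p6) were at hand for 7 of the 10 members. The start used there lies 19 bases inside the annotated gene for Actn4, 23 for Inf2 and 43163 for Plce1, and at the outer end of the gene for the other 4. The motifs were the WT1/EGR-type GCGTGGGNG, the TEAD-type GGAATG, the LMX1B-type TAATTA and the CArG box bound by SRF, each on both strands, and no matches overlapped. The windows of Actn4, Inf2 and Myo1e held a match and are shown 5′ to 3′ on the strand of the gene, with the matched bases in capitals.

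Actn4, chr7:28962333-28962582, minus strand: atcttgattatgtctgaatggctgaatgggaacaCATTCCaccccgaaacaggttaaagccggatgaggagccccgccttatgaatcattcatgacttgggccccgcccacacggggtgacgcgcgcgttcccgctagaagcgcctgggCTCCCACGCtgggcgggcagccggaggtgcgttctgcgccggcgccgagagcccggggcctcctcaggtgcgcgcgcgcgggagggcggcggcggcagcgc
Inf2, chr12:112588517-112588766, plus strand: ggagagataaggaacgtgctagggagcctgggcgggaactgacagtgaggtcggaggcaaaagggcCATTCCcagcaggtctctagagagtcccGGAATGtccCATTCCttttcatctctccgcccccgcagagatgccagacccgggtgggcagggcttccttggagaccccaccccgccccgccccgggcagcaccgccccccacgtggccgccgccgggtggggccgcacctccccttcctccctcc
Myo1e, chr9:70207100-70207349, plus strand: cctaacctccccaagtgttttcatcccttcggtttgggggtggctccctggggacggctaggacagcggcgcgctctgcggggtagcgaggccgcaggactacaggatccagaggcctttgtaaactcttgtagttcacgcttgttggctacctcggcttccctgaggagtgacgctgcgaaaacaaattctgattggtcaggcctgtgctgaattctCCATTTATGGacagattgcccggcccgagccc

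In Actn4 the reverse complement of the WT1/EGR-type motif, CTCCCACGC, lay 101 to 93 bases before the start, and 1.60% of all 27018 promoter windows held such a match. Inf2 held 3 TEAD-type matches and Actn4 1, and 12.6% of all windows held at least 1. The CArG box of Myo1e, CCATTTATGG, lay 32 to 23 bases before the start, with a match in 1.41% of all windows. None of the 7 windows held TAATTA, found in 4.91% of all windows. These matches describe the letters of the windows and are not evidence of binding.

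**Figure D1:**
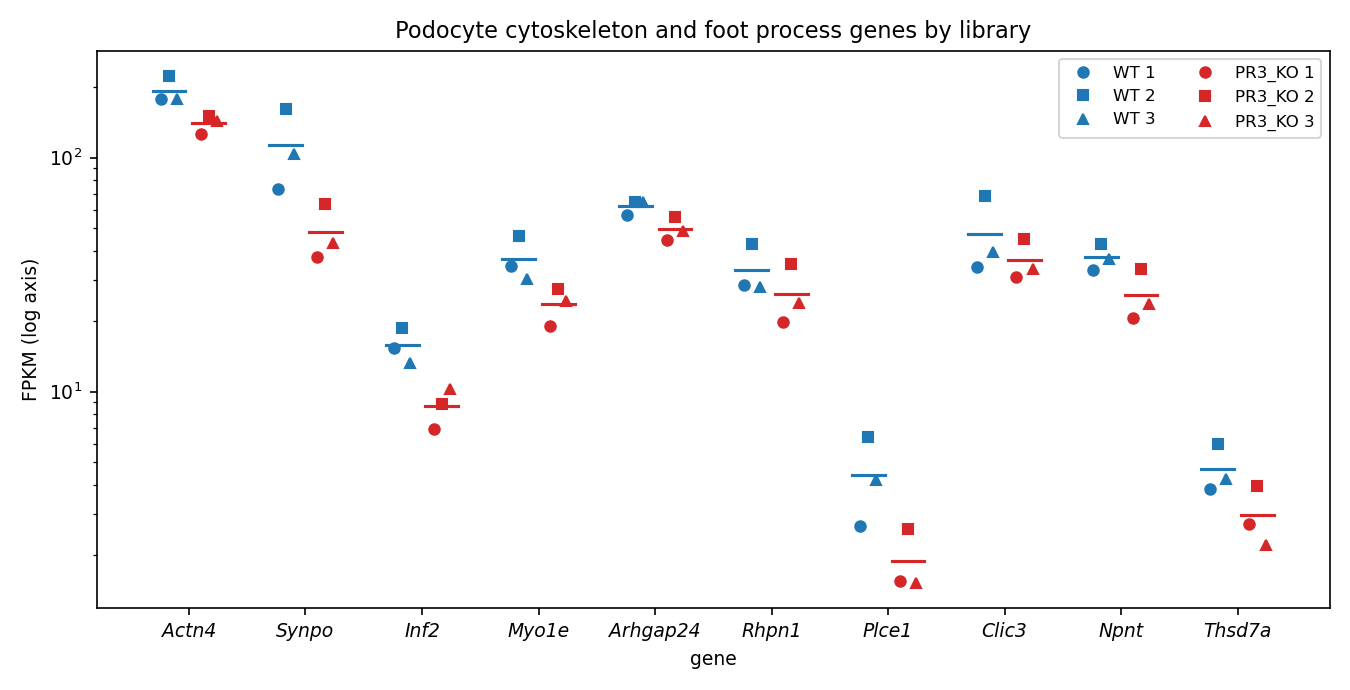
FPKM of the 10 genes on a log axis, with 1 point per library (blue WT, red PR3_KO; circle, square and triangle for replicates 1, 2 and 3) and a bar at each mean. WT 2 was the highest library for 9 of the 10 genes, and the genotypes did not overlap in 6.

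Among the 4 members grouped as signalling genes, 1 fell and 3 did not pass the test, against 41.1% of all tested genes that fell, and their median of -0.33 was near the -0.26 of all tested genes. The one that fell was Plce1, on chromosome 19 (plus strand, bases 38481034 to 38785105), which encodes phospholipase C epsilon, a signalling enzyme whose loss causes early nephrotic syndrome. Plce1 was at 1.56, 2.58 and 1.53 FPKM in the knockout libraries 1, 2 and 3, against 2.66, 6.41 and 4.18 FPKM in WT. The groups did not overlap, but PR3_KO 2 and WT 1 lay close together. The mean fell from 4.42 ± 1.89 to 1.89 ± 0.598 FPKM (log2 change -0.87 with an SE of 0.26, adjusted p = 0.0254 by limma). Because the level is low, the added 1 FPKM shrinks this value, which was -1.14 with 0.1 FPKM added in its place (adjusted p = 0.0230 by limma). With median-of-ratios scaling Plce1 was at -0.62 (adjusted p = 0.0602 by limma). It was also not past the threshold without PR3_KO 1, PR3_KO 3 or WT 3 (adjusted p = 0.0863, 0.0799 and 0.0628 by limma).

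Arhgap24, a GTPase-activating protein that turns off Rac, maps to chromosome 5, plus strand, bases 102207198 to 102905035. Its FPKM was 44.44, 55.78 and 48.68 in PR3_KO, against 56.84, 64.68 and 64.71 in WT. The groups did not overlap, and PR3_KO 2 came within a small distance of WT 1. Arhgap24 had the smallest spread of the 10 genes in WT, with a coefficient of variation of 7.31%. The log2 fold change of -0.32 (SE 0.12) missed the threshold narrowly (adjusted p = 0.0504 by limma), but was 0.00 after median-of-ratios scaling (adjusted p = 0.979 by limma). It was past the threshold without PR3_KO 2 and without WT 1 (adjusted p = 0.0414 and 0.0439 by limma).

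Rhpn1 encodes rhophilin 1, a scaffold protein of podocytes, on chromosome 15 (plus strand, bases 75704246 to 75714419). It was at 19.75, 34.98 and 23.84 FPKM in the knockout libraries 1, 2 and 3, against 28.43, 42.57 and 27.93 FPKM in WT. PR3_KO 2 lay above both WT 1 and WT 3, so the genotypes overlapped. The log2 fold change was -0.33 (SE 0.23, adjusted p = 0.252 by limma), but -0.01 after median-of-ratios scaling. It ranged from -0.55 without PR3_KO 2 to -0.14 without WT 2, and was -0.16 without PR3_KO 1.

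Clic3, a short gene on chromosome 2 (plus strand, bases 25456843 to 25458777) with 1012 exonic bases, encodes a member of the chloride intracellular channel family. It stood at 30.83, 44.97 and 33.53 FPKM in the knockout libraries 1, 2 and 3, against 33.96, 68.32 and 39.52 FPKM in WT. Again PR3_KO 2 was above 2 of the WT libraries, and WT 2 stood apart at the top. The log2 fold change of -0.32 (SE 0.26, adjusted p = 0.321 by limma) rested on WT 2, without which it was -0.03 (adjusted p = 0.908 by limma). With median-of-ratios scaling it was 0.00 (adjusted p = 0.992 by limma).

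The remaining members sit at the cell surface or in the matrix. Npnt encodes nephronectin, a basement membrane protein made by podocytes that binds integrin alpha 8 beta 1, and maps to chromosome 3, minus strand, bases 132881745 to 132950291. It was at 20.69, 33.39 and 23.78 FPKM in the knockout libraries 1, 2 and 3, against 33.21, 42.64 and 37.03 FPKM in WT. PR3_KO 2 reached the level of WT 1, while PR3_KO 1 and 3 were below all WT libraries. Npnt fell from 37.6 ± 4.74 to 25.95 ± 6.62 FPKM (log2 change -0.54 with an SE of 0.18, adjusted p = 0.0343 by limma). The call was lost with median-of-ratios scaling (-0.22, adjusted p = 0.275 by limma) and, of the fits without 1 library, held only without PR3_KO 2 and without WT 1 (adjusted p = 0.00775 and 0.0360 by limma). It was also lost with no expression filter (adjusted p = 0.0559 by limma).

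The receptor subunit gene Itga8, which mesangial cells express, was lower on average in the knockout libraries (14.23, 24.71 and 18.51 FPKM) than in WT (28.18, 40.33 and 21.99 FPKM), with overlap (log2 change -0.62, adjusted p = 0.0680 by limma). The ratio of Npnt to Itga8 was 1.36 ± 0.0853 in PR3_KO and 1.31 ± 0.332 in WT, with overlapping values. Itgb1, the gene of the other subunit, is expressed by many cell types. The ratio of Npnt to Itgb1 was 0.262, 0.312 and 0.234 in the knockout libraries and 0.195, 0.191 and 0.193 in WT. It did not overlap between genotypes and was not tested. Egfl6, the closest relative of Npnt, was under the filter at 0.707 and 0.743 FPKM.

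Thsd7a, a transmembrane protein of foot processes and an autoantigen of membranous nephropathy, maps to chromosome 6, minus strand, bases 12311608 to 12749253. It was at 2.71, 3.96 and 2.22 FPKM in the knockout libraries 1, 2 and 3, against 3.84, 6.00 and 4.24 FPKM in WT. PR3_KO 2 lay just above WT 1, and the other PR3_KO libraries were below all WT libraries. The log2 fold change of -0.53 (SE 0.20) did not pass (adjusted p = 0.0553 by limma), and it was -0.27 with median-of-ratios scaling (adjusted p = 0.242 by limma). Thsd7a was past the threshold without PR3_KO 2 and without WT 1 (adjusted p = 0.0231 and 0.0485 by limma).

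**Figure D2:**
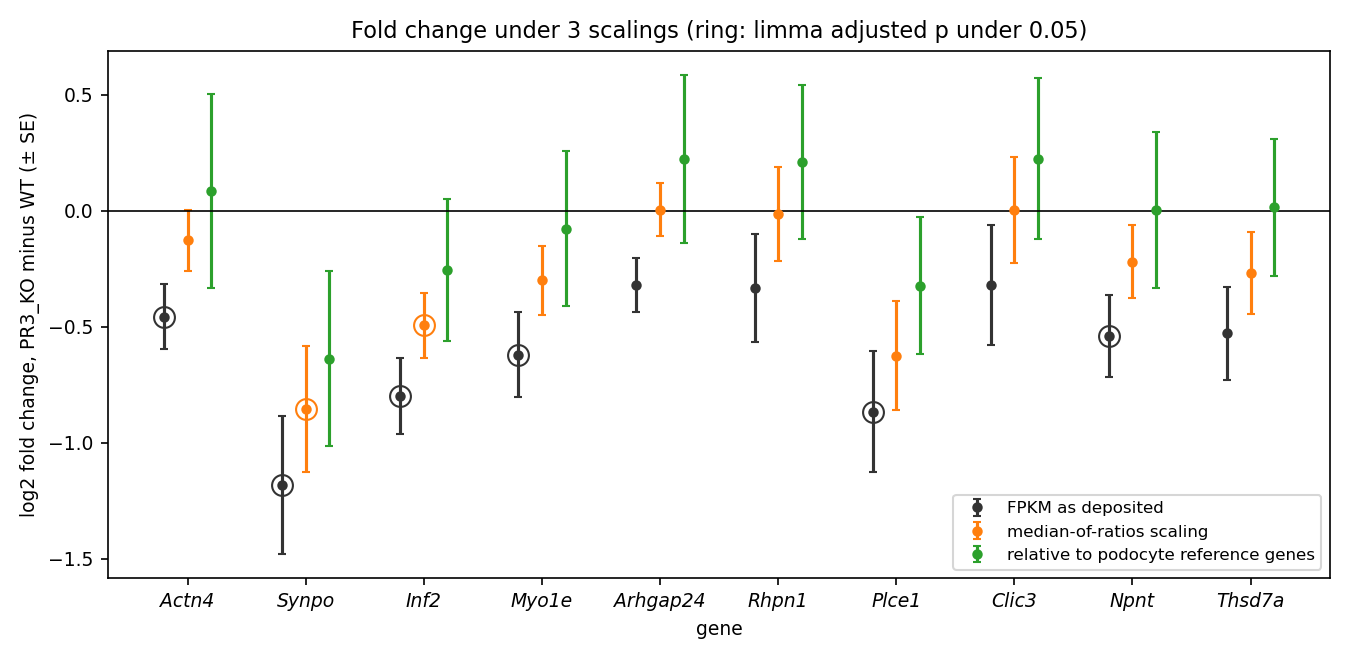
Log2 fold change (PR3_KO minus WT, bars are 1 SE, 3 libraries per genotype) of each gene from the deposited FPKM (black), with median-of-ratios scaling (orange) and relative to the 8 podocyte reference genes (green), with a ring where limma's adjusted p was under 0.05. All 10 black points are below 0 and 6 are ringed, 2 orange and 0 green points are ringed, and Arhgap24 and Clic3 turn just above 0 in orange. Of all tested genes 41.1%, 22.2% and 4.19% fell on the black, orange and green scales.

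FPKM allows levels to be set against each other per length of transcript. In WT the order was Actn4, Synpo, Arhgap24, Clic3, Npnt, Myo1e, Rhpn1, Inf2, Thsd7a and Plce1, from 193 down to 4.42 FPKM. The level of Actn4 was above that of 96.6% of tested genes and that of Plce1 above 21.2%. From Arhgap24 to Rhpn1 each gene's WT libraries overlapped those of the next gene, so the order of such neighbours is not resolved by their ranges. That also holds for Thsd7a and Plce1. Every WT library of Arhgap24 (56.84 FPKM or more) was above every WT library of Npnt, Myo1e and Rhpn1 (46.07 FPKM or less). In PR3_KO, Arhgap24 (49.6 ± 5.73 FPKM) and Synpo (47.9 ± 13.4 FPKM) overlapped, whereas in WT every Synpo library was above every Arhgap24 library.

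The 10 genes shared a pattern across libraries within a genotype. WT 2 was the highest of the 6 libraries for 9 of them, against 46.6% of all tested genes. PR3_KO 2 was the highest PR3_KO library for 9, against 39.4% of all tested genes, and PR3_KO 1 was the lowest of the 6 libraries for 8, against 37.5%. The mean log2(FPKM + 1) of the members was 4.21, 4.71 and 4.38 in PR3_KO, against 4.80, 5.38 and 4.92 in WT. The podocyte reference genes had the same order within each genotype, at 3.17, 3.88 and 3.54 in PR3_KO, against 3.79, 4.49 and 3.95 in WT. After each genotype's mean was subtracted, the 2 series correlated at a Pearson r of 0.99 over the 6 libraries. The same value was 0.96 for mesangial and smooth muscle markers, 0.90 for endothelial, 0.81 for loop, distal tubule and collecting duct, 0.48 for parietal, -0.80 for proximal tubule and 0.14 for macrophage markers. These are descriptions over 6 points that share each library's depth and scaling.

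The members differed in how closely they followed the podocyte reference. Within genotypes Actn4, Rhpn1, Synpo and Clic3 had an r of 0.97, 0.96, 0.95 and 0.94 with it, and Inf2 the lowest, 0.72. For 6 members another marker list gave a higher r than the podocyte one. Clic3 had 0.97 with mesangial markers, and Myo1e 0.95 with endothelial markers against 0.92 with podocyte markers. Thsd7a, Arhgap24 and Npnt had 0.91, 0.88 and 0.92 with the loop, distal tubule and collecting duct markers, against 0.81, 0.84 and 0.91 with the podocyte markers. Inf2 had 0.87 with parietal and 0.85 with endothelial markers. The relative spread between libraries was wider than usual. The median coefficient of variation of the 10 genes was 23.3% in WT and 23.1% in PR3_KO, against 13.0% and 9.97% over all tested genes.

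Among 8851 genes averaging 5 FPKM or more, those with the closest within-genotype pattern to the members' mean were Nfe2l1, Sec14l1, Pgrmc2, Speg and Mid1ip1 (r of 0.996 to 0.9996 over 6 libraries), and 300 genes were above 0.95. The podocyte transcription factor genes Foxc2 and Wt1 ranked 9 and 26. For Synpo alone the closest were Myzap, Nes, Rragc, Enc1 and Tmem150c. Of these, Nes encodes nestin, an intermediate filament protein of podocytes, and went from 60.0 ± 21.8 to 16.4 ± 3.90 FPKM (log2 change -1.77, adjusted p = 0.00172 by limma). The 8 podocyte reference genes were at -0.83 to -0.32 and the 10 glomerular endothelial markers at -1.90 to -1.19. Which cells the Nes reads came from was not tested.

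Relative to the podocyte reference genes, 0 of the 10 members passed the test in either direction (limma), with 0 at an unadjusted p under 0.05. Over all tested genes on this scale 4.19% fell and 13.9% rose. The SE of the members was 0.29 to 0.42, wider than the 0.12 to 0.30 of the deposited values. The median of the members was 0.01 and that of all tested genes 0.29.

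Synpo was the member farthest from 0 on this scale. It lay 2.09, 2.13 and 1.92 above the podocyte reference in PR3_KO and 2.43, 2.86 and 2.76 above it in WT, in log2 units. All WT libraries were above all PR3_KO libraries, as in 9.05% of tested genes on this scale (20.5% had the reverse order), and Synpo was the one member without overlap. The difference of -0.64 (SE 0.38) did not pass the test (adjusted p = 0.238 by limma). That SE is moderated toward the spread of all genes on this scale. From the 6 Synpo values alone it was 0.14, and over the 10 members such SEs were 0.081 to 0.21. The smallest was that of Rhpn1, whose difference of 0.21 had the other sign. No test was made with these SEs. Plce1 and Inf2 were at -0.32 and -0.26 (adjusted p = 0.474 and 0.599 by limma), and Myo1e at -0.08 (adjusted p = 0.897 by limma). Arhgap24, Rhpn1 and Clic3 were at 0.22, 0.21 and 0.22, Actn4 at 0.09, and Npnt and Thsd7a at 0.00 and 0.01, none of them past the threshold.

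**Figure D3:**
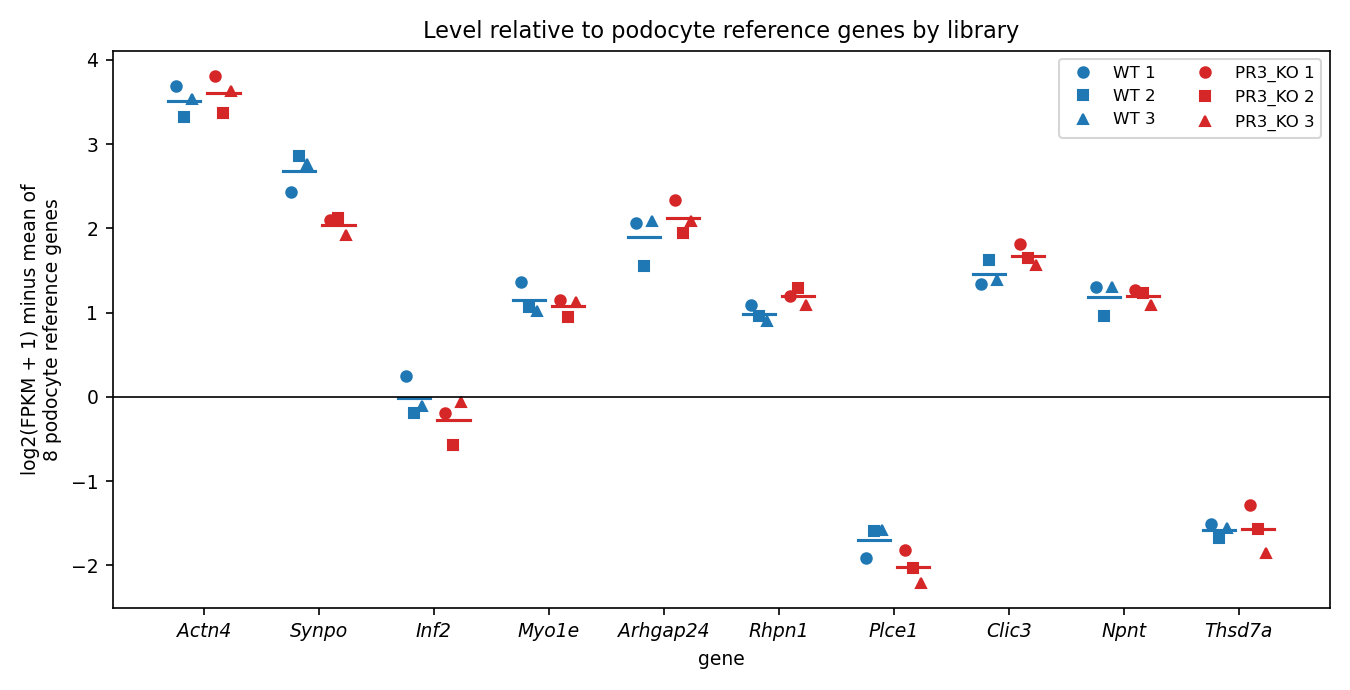
Log2(FPKM + 1) of each gene minus the mean of the 8 podocyte reference genes in the same library, with symbols and bars as in the plot of FPKM. Synpo is 1.92 to 2.13 in PR3_KO and 2.43 to 2.86 in WT, and the genotypes overlap for the other 9 genes.

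The proximal tubule markers moved opposite to the members. With the score of these 10 markers as a covariate, 0 members and 0 of all 12388 genes passed (limma), with 1 member, Clic3, and 809 genes at an unadjusted p under 0.05. Of the 10 members 9 then had a positive sign, and Inf2 stayed negative at -0.37 (SE 0.48). The score differed between genotypes without overlap, so the 2 terms compete for the same difference.

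The wider machinery of actin and adhesion was described from 5 lists with 75 genes, of which 71 passed the filter. Of these, 47 fell and 0 rose, against 41.1% and 11.7% of all tested genes. The median log2 fold change was -0.60. With median-of-ratios scaling 29 fell and 3 rose, against 22.2% and 25.6% of all tested genes.

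Among genes of actin cross-linking and contraction, 13 of 14 tested genes fell (10 with median-of-ratios scaling), with a median of -0.99 as deposited. Of all tested genes 41.1% fell, and 22.2% with median-of-ratios scaling. The cytoplasmic beta-actin gene Actb fell from 1163 ± 104 to 473 ± 14.2 FPKM (log2 change -1.29, adjusted p = 0.000773 by limma). The tropomyosin genes Tpm2, Tpm4 and Tpm1, whose products coat actin filaments, fell by 1.48, 1.48 and 1.07 (adjusted p = 0.000816, 0.000982 and 0.00143 by limma). These genes are also expressed by endothelial, mesangial and immune cells. The endothelial, mesangial and macrophage marker sums were lower in PR3_KO, and their part in these falls was not tested. Actn1, the nonmuscle paralog of Actn4, fell from 15.7 ± 2.87 to 9.96 ± 1.15 FPKM (log2 change -0.60, adjusted p = 0.0100 by limma).

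In the list of actin nucleation, branching and turnover 12 of 17 tested genes fell, and 6 with median-of-ratios scaling. Actr3 and Actr2, subunits of the Arp2/3 complex that starts filament branches, fell, as did the adaptor gene Nck1, which couples nephrin to actin, and Vasp, a filament elongation factor. Their log2 fold changes were -1.01, -0.87, -1.16 and -1.002 (adjusted p = 0.000910, 0.000926, 0.000935 and 0.00251 by limma). The formins related to Inf2 were Diaph1, which fell from 17.1 ± 2.08 to 12.1 ± 0.648 FPKM (adjusted p = 0.00897 by limma), and Diaph2, at 2.81 and 2.29 FPKM (adjusted p = 0.167 by limma).

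In the focal adhesion list 8 of 17 fell (5 with median-of-ratios scaling), shares near the 41.1% and 22.2% of all tested genes. Among those that fell were Lims1, Fermt2, Itgb1 and Kank2 (-1.03, -0.90, -1.02 and -0.78, adjusted p = 0.000935, 0.00191, 0.00192 and 0.00276 by limma). The 3 genes that rose with median-of-ratios scaling all belong to this list: Tns1, Pxn and Kank1 (0.64, 0.45 and 0.30, adjusted p = 0.0102, 0.00948 and 0.0424 by limma), named after their values were seen. Over all tested genes 25.6% rose with that scaling.

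In the slit diaphragm list 3 of 8 tested genes fell, and 1, Cd2ap, with median-of-ratios scaling, no larger shares than the 41.1% and 22.2% of all tested genes. They were the adaptor gene Cd2ap, the sialomucin gene Podxl, which endothelium also expresses, and the nephrin gene Nphs1 (-0.62, -0.83 and -0.63, adjusted p = 0.00346, 0.0102 and 0.0498 by limma).

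**Figure D4:**
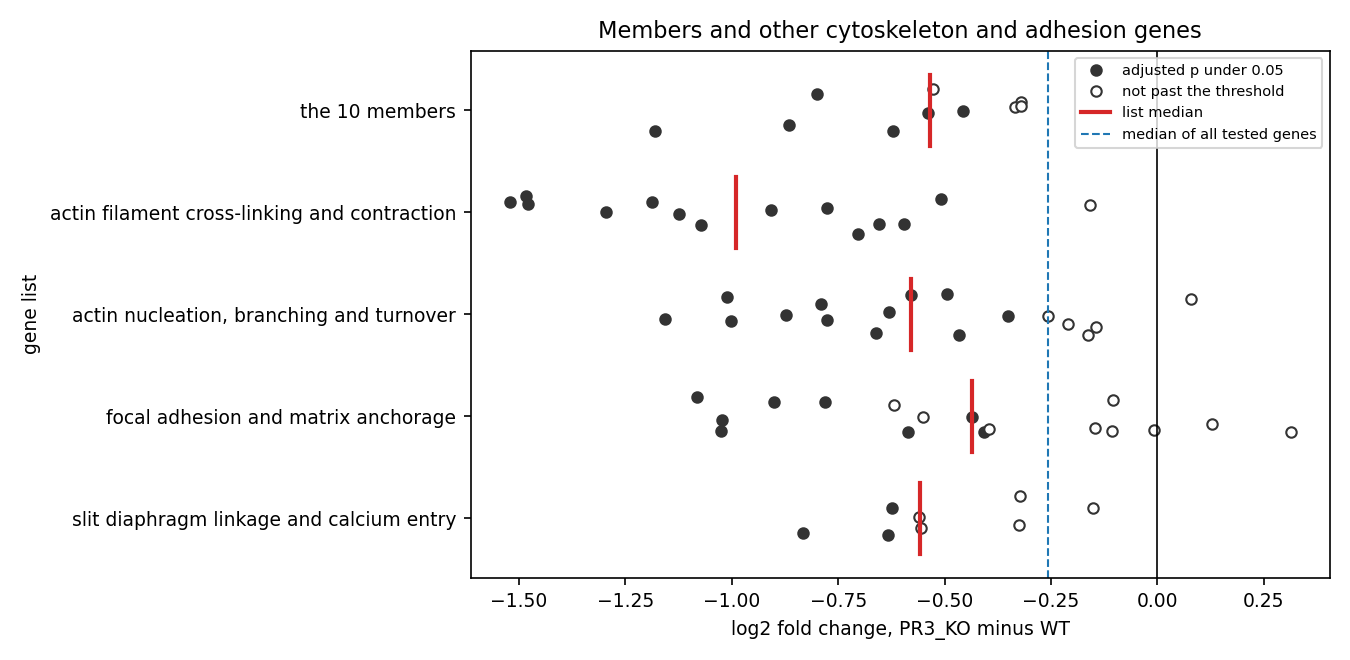
Log2 fold change (PR3_KO minus WT) of the 10 members and of the tested genes of 4 of the related lists, 1 point per gene, filled where limma's adjusted p was under 0.05. The red bars are list medians, from -0.99 for actin cross-linking to -0.44 for focal adhesion, and the dashed line is the median of all tested genes, -0.26; with median-of-ratios scaling 29 genes of all 5 lists fell and 3 rose.

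The paralogs of the members were 34 genes, of which 22 were tested, 15 fell and 0 rose, against 41.1% and 11.7% of all tested genes. Actn1, Synpo2, Diaph1 and Diaph2 are also in the lists above, so the counts share genes. With median-of-ratios scaling (22.2% and 25.6% of all tested genes) 11 fell and 1 rose, Plcd3 (0.43, adjusted p = 0.0199 by limma). In the Clic family, Clic4 and Clic5 fell from 219 ± 35.6 to 98.6 ± 11.7 and from 84.6 ± 16.3 to 40.3 ± 5.72 FPKM (adjusted p = 0.00127 and 0.00187 by limma), and the ratio of Clic3 to Clic5 was 0.833, 0.959 and 0.907 in PR3_KO, against 0.480, 0.666 and 0.491 in WT. The ratio did not overlap between genotypes, nor did those of Clic3 to Clic4 and Actn4 to Actn1, and none of them was tested. For Actn4 to Actn1 the lowest PR3_KO value was 13.41 and the highest WT value 13.27. How often the ratios of other gene pairs separate was not computed. Among class I myosins, Myo1f and Myo1g, which are expressed in leukocytes, fell by 1.74 and 1.68 (adjusted p = 0.00202 and 0.00335 by limma), while the ratio of Myo1e to the broadly expressed Myo1c was 0.352 ± 0.0107 in PR3_KO and 0.317 ± 0.0312 in WT with overlapping values. For Synpo, Synpo2 was at 0.0467 and 0.173 FPKM and Synpo2l at 1.05 and 0.363 FPKM in PR3_KO and WT, both under the filter (exact two-sided permutation p = 0.1 for each, n = 3 per genotype, the smallest that 3 against 3 can give). Rhpn2, the paralog of Rhpn1, was at 2.62 and 2.73 FPKM, Arhgap25, a leukocyte relative of Arhgap24, fell by 1.07, and Thsd7b was near 0 in every library.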

How the data were processed

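Polyadenylated RNA of 6 glomerular libraries was sequenced on a DNBSEQ instrument, per the labels' protocols. The authors deposited FPKM, per the file headers; the values carry 2 decimals, with no counts or totals. Bowtie2 and build GRCm38.p6 are named per the submitters' processing notes; the version, quantification tool, annotation and strand use were not given in the sources used here. FPKM is scaled by all mapped fragments of a library, so abundant transcripts lower the values of the rest, and whole reads were not recovered.

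Of 22064 Entrez IDs, 3242 were empty in all files. Of the other 18822, 18770 matched a RefSeq gene table of GRCm38.p6. Exon overlaps came from GENCODE release M21. The depth was read as 1 fragment at the commonest value above 0 (0.07 or 0.08 FPKM) of 53 olfactory receptor genes, carried by 3 to 7 genes per library, which makes it a rough estimate.

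The 12388 genes that averaged 1 FPKM or more were fitted as log2(FPKM + 1) with limma 3.58.1 (statmod 1.5.0, R 4.3.3), with genotype as the only term, an intensity trend and robust moderation, and Benjamini-Hochberg adjustment over all tested genes at 0.05. Fold changes are PR3_KO minus WT on this scale, where low genes show less than their true change. The procedure was run on simulated data with independent noise and few changed genes, up and down alike. That run does not cover a shift shared by many genes, as in these data. Python 3.11.15, pandas 2.3.3, numpy 2.4.6, scipy 1.17.1 and matplotlib 3.10.9 were used for the rest.

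The members and all lists were chosen with earlier results of these data known. The genes named are the members, their paralogs, up to 4 genes per list with the smallest adjusted p, and the 5 closest patterns. Alternatives were another pseudocount, no filter, 2 other scalings, the podocyte reference, a proximal tubule covariate, a replicate block, no trend, and leaving out libraries. Some items are not reported here.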

Additional observations from a re-analysis of the deposited data

How the results depend on the processing

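As deposited 6 members fell and 0 rose. The count was also 6 with a pseudocount of 0.1 or without trend and robust moderation, 5 with no filter (Npnt lost) and 8 with equal library sums (Arhgap24 and Thsd7a gained, adjusted p = 0.0134 and 0.0292 by limma). Scaled by median of ratios it was 2, relative to the podocyte reference genes 0, with a proximal tubule covariate 0, and 2 with WT 2 and PR3_KO 3 left out together (Inf2 and Myo1e). Leaving out 1 library gave 1 to 8, the lowest without PR3_KO 1 (Inf2 alone), and 2 without PR3_KO 3 (Synpo and Inf2). The median of the members was -0.24 with median-of-ratios scaling, 0.0090 relative to the podocyte reference and 0.35 with the covariate, and -0.72 to -0.41 without 1 library.

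For the 75 other cytoskeleton and adhesion genes, 29 fell and 3 rose with median-of-ratios scaling, 2 fell relative to the podocyte reference and 0 with the covariate, and 1 rose without WT 2 and PR3_KO 3. For all genes, 5091 of 12388 fell and 1454 rose as deposited. With median-of-ratios scaling 2742 fell and 3158 rose, and relative to the podocyte reference 519 fell and 1725 rose. With the covariate 0 fell and 0 rose, and with equal library sums 6345 fell and 894 rose. The number that fell was 5106 with a pseudocount of 0.1, 5133 without trend and robust moderation and 5547 with no filter. With WT 2 and PR3_KO 3 left out together, 3922 fell and 1009 rose. Without 1 library 3873 to 4731 fell and 916 to 1518 rose. The fewest rose without PR3_KO 1, and next 936 without PR3_KO 3.

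Signs turned, with no adjusted p under 0.05 (limma), for Arhgap24 and Clic3 with median-of-ratios scaling (0.0042 and 0.0032) and for Clic3 without WT 2 and PR3_KO 3 (0.023). Relative to the podocyte reference they turned for Actn4, Arhgap24, Rhpn1, Clic3, Npnt and Thsd7a (0.086, 0.22, 0.21, 0.22, 0.0030 and 0.015). With the covariate they turned for Actn4, Synpo, Myo1e, Arhgap24, Rhpn1, Plce1, Clic3, Npnt and Thsd7a (0.12, 0.84, 0.13, 0.043, 0.77, 0.94, 1.43, 0.19 and 0.51). The cause was not tested.

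With the replicate number as a block 9 members fell and 0 rose, Arhgap24, Rhpn1 and Thsd7a in addition (limma adjusted p = 0.0355, 0.0295 and 0.0106), and Clic3 did not pass (limma adjusted p = 0.0568). In the same fit 5143 of all 12388 tested genes fell and 1550 rose. Over all tested genes, same-numbered libraries correlated at 0.07, 0.27 and -0.09 in their deviations, and differently numbered ones at -0.26 to 0.32. By this check the numbers were not taken as pairs. The mean of the members was nevertheless lowest in library 1 and highest in library 2 of both genotypes. The SE of Synpo was 0.12 with the block and 0.30 without it. Whether the libraries were paired is not known. With 3 libraries per genotype and no counts, sampling error per gene could not be given.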
